A study of Rattus norvegicus with 4 samples.

Results

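Vessels of wild-type rats and of rats lacking protein kinase C beta (PKC-beta) were compared after exposure of both to angiotensin II (Ang II). The comparison rests on 1 array of group KO Ang II and 1 array of group WT Ang II. Every named gene with a probe well above background on at least 1 of these 2 arrays was kept, and 9572 of the 16580 named genes on the array could be compared. With 1 array on each side there is no replicate spread, so no difference below carries a p-value or a replicate check.

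The groups are described by their labels. The WT animals were male Wistar rats and the KO animals were male rats labelled as transgenic for the PKC-beta deletion. The design text names 4 rats per genotype, and both groups compared here received Ang II for 24 h, so the agent is shared and the labels separate the groups by genotype. The vessels of the WT control and KO control groups, with 1 array each, carry no Ang II in their labels and are used below for a separate comparison of the genotypes. The sources used here do not give the vessel, the age of the rats, how the deletion was made, or if an array held RNA of 1 rat or of several.

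Protein kinase C beta is a serine-threonine kinase that is switched on by calcium and diacylglycerol. Ang II, the effector peptide of the renin-angiotensin system, acts on vascular smooth muscle through a receptor that stimulates phospholipase C and so supplies both signals. In the vessel wall this pathway is known for contraction, for superoxide production by NADPH oxidases, for the induction of chemokines and other inflammatory genes and for the synthesis of matrix.

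Values are given as scaled signals, in arbitrary units of brightness. The processed signal of each array was multiplied so that its 75th percentile over all probes was 54.8, which makes the ratio of the 2 arrays' scaled signals the fold difference. Log2 differences are KO minus WT, so a negative value means lower in KO. Where 1 of the 2 arrays did not detect a gene well above background, the dim side was taken as at least the lowest signal that any probe well above background had on that array, 6.95 on WT Ang II and 8.64 on KO Ang II, and the result is a bound. Of the genes compared, 8884 were measured on both arrays, 158 gave a bound upward and 530 a bound downward, and 77 further genes gave no usable bound. The sign of a bound is fixed by the array that detected the gene, and the counts above and below 0 include bounds. A gene was counted as different at 2-fold. Scaled signals of different genes come from different probes and do not rank genes by RNA amount.

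The 4 arrays had 40.6% to 43.5% of probes well above background and no saturated spot. Each array had its own position on 1 slide, so position and group cannot be told apart. The median SD between spots of the same probe lay between 0.0658 and 0.0756 (log2), which is technical precision only. Prkcb, the gene of the deleted kinase, checked the labels. Its probe with replicate spots read 15.8 on WT Ang II and 1.99 on KO Ang II, and 13.8 and 2.25 on WT control and KO control; it was not well above background on the KO Ang II array. As a bound, KO Ang II was at least 1.83-fold below WT Ang II for Prkcb. Its other probe was lower in KO as well. The position of the probes relative to the deletion is unknown here.

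The labelled tissue was checked against marker genes. All 8 vascular smooth muscle markers were well above background on both Ang II arrays, among them Myh11, the smooth muscle myosin heavy chain, and Smtn, which encodes smoothelin of contractile smooth muscle. None of the 7 neutrophil markers on the array was well above background on either Ang II array, and 8 of the 10 T cell markers were dim on both, Cd3e, Cd8a and Lck among them. Of the 8 cardiac muscle markers 6 were dim, including Myh6 and Nppa. Lep and Ucp1 were dim among the adipocyte markers, but 6 of 11 white adipocyte markers were compared. Their median log2 difference was -0.28 with Ang II and -1.05 without. Adipoq was at -1.22 and Cidea, a brown adipocyte marker, at -1.12. Of 11 skeletal muscle markers 5 were compared, and Myh1 was at least 3.02-fold higher. With the normexp background correction described below Adipoq, Cidea and Myh1 were under 2-fold. Markers of fibroblasts, blood endothelium and macrophages were present, and the values of fibroblast and macrophage markers stand beside the gene groups below. None of the 10 endothelial markers compared was past 2-fold, with summed scaled signals of 2144 and 1921. Of 5 lymphatic markers Lyve1 and Reln were at least 2-fold lower, both as bounds, and neither was with the normexp background correction described below. In RNA from whole vessels, fewer cells of a type and less RNA per cell cannot be told apart.

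Many cytokine genes and interferon-induced genes were lower in KO with Ang II, and the upstream sequence of some of them is shown first for that reason. The sequences run from 250 bases before to 50 bases after the gene start and come from the RefSeq table of build GRCr8, which held 41 of the 53 interferon response genes compared and 34 of the 46 cytokine genes. Capitals mark matches, on either strand, to the interferon response element core GAAANNGAA in Gbp5, Lgals9 and Bst2 and to the NF-kB site in Ccl20, Cxcl11 and Il6. Gbp5 and Lgals9 had the largest differences among interferon genes with a match, Bst2 was the interferon gene past 2-fold in opposite directions with and without Ang II, and Ccl20, Cxcl11 and Il6 had the largest differences among cytokine genes with a match. On the gene's own strand, 5′ to 3′, they read:
Gbp5: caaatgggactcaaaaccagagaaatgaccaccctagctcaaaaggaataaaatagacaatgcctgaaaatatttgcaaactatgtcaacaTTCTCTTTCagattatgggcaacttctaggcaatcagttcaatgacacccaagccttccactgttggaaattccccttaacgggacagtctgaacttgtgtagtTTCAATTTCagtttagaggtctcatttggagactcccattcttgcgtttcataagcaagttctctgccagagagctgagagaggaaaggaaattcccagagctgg
Lgals9: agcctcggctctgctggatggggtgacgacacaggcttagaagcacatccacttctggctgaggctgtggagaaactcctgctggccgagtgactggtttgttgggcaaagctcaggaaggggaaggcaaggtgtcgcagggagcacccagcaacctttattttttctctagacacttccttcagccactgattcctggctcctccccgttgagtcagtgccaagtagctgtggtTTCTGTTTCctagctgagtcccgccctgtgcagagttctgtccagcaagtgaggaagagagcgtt
Bst2: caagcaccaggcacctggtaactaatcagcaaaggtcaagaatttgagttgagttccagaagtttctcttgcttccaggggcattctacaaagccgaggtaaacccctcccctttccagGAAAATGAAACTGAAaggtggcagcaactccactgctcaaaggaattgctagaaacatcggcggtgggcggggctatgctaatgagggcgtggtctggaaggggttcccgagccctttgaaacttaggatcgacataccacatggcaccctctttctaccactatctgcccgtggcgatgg
Ccl20: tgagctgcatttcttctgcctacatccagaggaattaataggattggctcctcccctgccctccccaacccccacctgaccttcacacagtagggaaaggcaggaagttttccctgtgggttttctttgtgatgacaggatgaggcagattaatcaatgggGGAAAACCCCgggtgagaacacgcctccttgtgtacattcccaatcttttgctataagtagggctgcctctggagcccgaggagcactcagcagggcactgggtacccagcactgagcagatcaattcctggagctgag
Cxcl11: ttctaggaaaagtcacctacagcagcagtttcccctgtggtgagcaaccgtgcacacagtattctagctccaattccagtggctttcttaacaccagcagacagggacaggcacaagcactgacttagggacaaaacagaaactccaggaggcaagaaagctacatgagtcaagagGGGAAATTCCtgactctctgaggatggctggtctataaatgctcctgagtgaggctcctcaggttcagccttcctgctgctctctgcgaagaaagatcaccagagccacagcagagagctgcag
Il6: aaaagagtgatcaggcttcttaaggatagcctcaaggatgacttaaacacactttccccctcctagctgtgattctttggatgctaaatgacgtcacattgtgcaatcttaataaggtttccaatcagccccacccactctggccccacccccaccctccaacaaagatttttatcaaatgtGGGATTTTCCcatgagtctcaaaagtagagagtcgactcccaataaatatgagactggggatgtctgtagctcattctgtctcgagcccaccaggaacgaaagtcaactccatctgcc
The windows are chr2:233910749-233911048 (plus strand) for Gbp5, chr10:64428021-64428320 (minus strand) for Lgals9, chr16:18254918-18255217 (minus strand) for Bst2, chr9:91836909-91837208 (plus strand) for Ccl20, chr14:15973478-15973777 (plus strand) for Cxcl11 and chr4:5894526-5894825 (minus strand) for Il6. Counted from the gene start, the matches begin at -159 and -55 in Gbp5, at -15 in Lgals9, at -89 in Ccl20, at -74 in Cxcl11 and at -68 in Il6. Bst2 had overlapping matches at -131 and -125.

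The core GAAANNGAA was found in 28 of the 41 interferon response promoters (68.3%), against 9.71% of all 33469 promoters in the table and 7.2% of the 7889 promoters of genes compared here. Among the interferon genes at least 2-fold lower in KO that had a promoter, 7 of 9 held it. The NF-kB site was found in 9 of the 34 cytokine promoters (26.5%), against 4.18% of all promoters, and in 6 of the 15 cytokine genes at least 2-fold lower. The AP-1 type motif TGANTCA was present in 8 of the 34 cytokine promoters (23.5%), against 7.33% of all. In the smooth muscle contractile list 2 of 36 promoters held a CArG box, the serum response factor motif, against 1.64% of all. None of the 3 contractile genes past 2-fold was among them. All motifs were searched on both strands, and CArG box and NF-kB site were matched by their usual degenerate patterns. A match is a run of letters and not a measured binding site.

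Across all named genes, 176 of 9572 were at least 2-fold higher in KO with Ang II (1.84%) and 423 at least 2-fold lower (4.42%). The list counts at 2-fold below are to be read against these shares. The median log2 difference over all genes compared was -0.04, with 46.6% of genes above 0. Among genes measured on both arrays, the middle 90% lay between -0.94 and 0.73. Large differences of named genes ran mostly downward: 29 genes were at least 4-fold lower and 5 at least 4-fold higher. Probes without a gene name did not share this direction at 2-fold, with 3.92% higher and 3.01% lower. Of the higher genes 36 were bounds, and of the lower genes 67. Dim genes spread more than bright ones, with an interquartile range of 0.746 in the dimmest of 5 equal groups of genes measured on both arrays and 0.434 in the brightest. The normexp background correction, a model that pulls dim signals together, left 18 genes higher and 137 lower. The share of higher among all genes past 2-fold was thus 29.4% with the processed signal and 11.6% with normexp. Normexp was run with an offset of 50, which is added to every signal. The 75th percentile of the processed signals lay between 47.3 and 62.4 on the arrays. The offset thus shrinks the ratios of dim genes by construction. For a dim gene, falling under 2-fold with normexp is partly fixed by this setting.

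**Figure D1:**
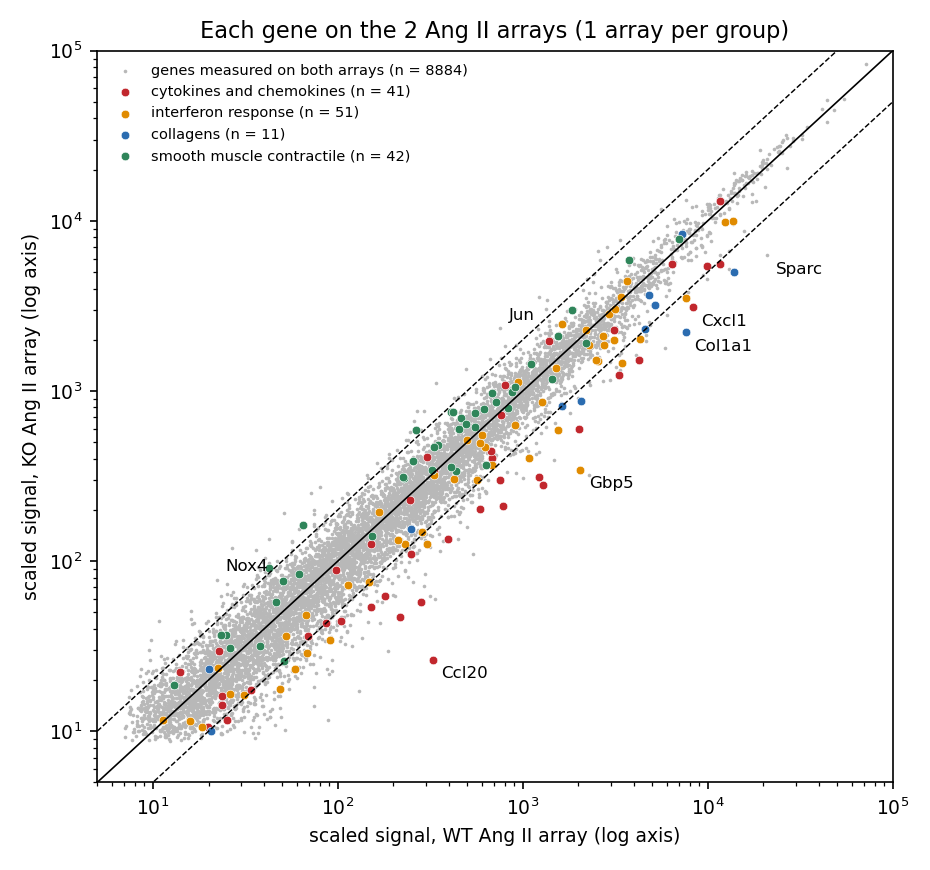
Scaled signal of each gene on the KO Ang II array against the WT Ang II array, both on log axes in arbitrary units, for the 8884 genes measured on both; colours mark 4 gene lists, the solid line is equality and the dashed lines are 2-fold. Many cytokine points lie under the lower dashed line, with Ccl20 farthest from equality, while most contractile genes lie above the solid line.

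A second probe of the same gene gave the only other reading on these arrays. Of the 38 lower genes with another measured probe, 26 had the same sign there and 13 were past 2-fold as well. Of the 29 higher genes with another probe, 15 had the same sign and 4 were past 2-fold. Readings of a gene by different probes thus often differed, and second probes are given below where they exist.

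Most cytokine and chemokine genes read lower on KO Ang II than on WT Ang II. Of 68 genes on the list 64 were on the array and 46 could be compared, while 18 were dim on both arrays. Of the 46 compared, 20 were at least 2-fold lower and none at least 2-fold higher. Their median log2 difference was -0.89, against -0.04 over all genes, and 39 lay below 0. With normexp 17 were at least 2-fold lower and the median was -0.45.

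CC chemokines, which mainly attract monocytes and lymphocytes, were the lowest group, with 8 of 12 at least 2-fold lower and a median of -1.62. Ccl20, the ligand of Ccr6 on dendritic cells and lymphocytes, read 328 on WT Ang II and 26.4 on KO Ang II, 12.4-fold lower. Its second probe gave -4.14 on the log2 scale. Ccl4 read 282 and 57.8, 4.89-fold lower. Ccl12, a monocyte chemokine of rodents, read 1292 and 281. Ccl7, a ligand of Ccr2, read 2022 and 600.3, 3.37-fold lower. In each of these 4 genes the 2 KO arrays lay below the 2 WT arrays, an order found in 31.2% of all genes measured on 4 arrays. Ccl19, which guides lymphocytes and dendritic cells through Ccr7, followed another order: it read 4236 on WT Ang II and 1515 on KO Ang II, with 1643 on WT control and 1705 on KO control. For Ccl19 the WT Ang II array alone stood apart. Ccl2, the main monocyte chemokine, read 9867 and 5415, 1.82-fold lower and short of the threshold. Ccl22 was the one CC chemokine above 0, at 0.44.

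CXC chemokines were lower too, with 6 of 13 at least 2-fold lower and a median of -0.96. Cxcl1, which attracts neutrophils, read 8339 on WT Ang II and 3100 on KO Ang II, with 2590 and 3268 on the control arrays. Its close relative Cxcl2 read 11610 and 5606, 2.07-fold lower. For both genes the 2 KO arrays and WT control lay within a range well under WT Ang II. The interferon-inducible ligands of Cxcr3 were lower as a set of 3: Cxcl11 by 2.91-fold, Cxcl10 by 2.67-fold and Cxcl9 by 2.17-fold, the last from signals of only 25.2 and 11.6 and under 2-fold with normexp. Cxcl12, the stromal ligand of Cxcr4, read 249.7 and 110.5, and its second probe gave -0.80. Cxcl13, which attracts B cells, was at 0.51, and Cx3cl1, the membrane-bound ligand of Cx3cr1, at -0.21.

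Interleukins had 4 of 12 at least 2-fold lower and a median of -0.89. Il6 read 179.6 on WT Ang II and 62.5 on KO Ang II, beside 60.1 on WT control and 74.9 on KO control. Il1a, an alarmin of injured cells, read 588 and 203, and Il33, another nuclear alarmin, read 151 and 53.7. Il34, a ligand of the Csf1 receptor, read 104 and 44.3, 2.35-fold lower, and was under 2-fold with normexp. Il1b was at -0.77 and its antagonist Il1rn at -0.59. Il11, a member of the Il6 family linked to fibrosis, was at 0.43, and Il7 was at least 1.99-fold higher, as a bound. Among the remaining cytokines, Tnf read 217 and 47.1, 4.61-fold lower, and Csf3, the granulocyte growth factor, read 753 and 301, 2.50-fold lower. Csf1 stood at -0.07 and Spp1, which encodes osteopontin, at 0.17.

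Receptors of these ligands had a median of -0.32; 6 of 27 were at least 2-fold lower and 1 higher, and with normexp 4 and 1 around a median of -0.17. Il1rl1, the Il33 receptor, read 268 and 101, 2.66-fold lower. Ackr3, a scavenger of Cxcl12, read 523 and 224, 2.34-fold lower. Ifngr1, a chain of the interferon-gamma receptor, read 925 and 458. In the other direction Cx3cr1, the fractalkine receptor of monocytes and macrophages, read 340 on WT Ang II and 1109 on KO Ang II, 3.26-fold higher, with 399 and 1180 on the control arrays. The KO arrays of Cx3cr1 thus lay above the WT arrays with and without Ang II.

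**Figure D2:**
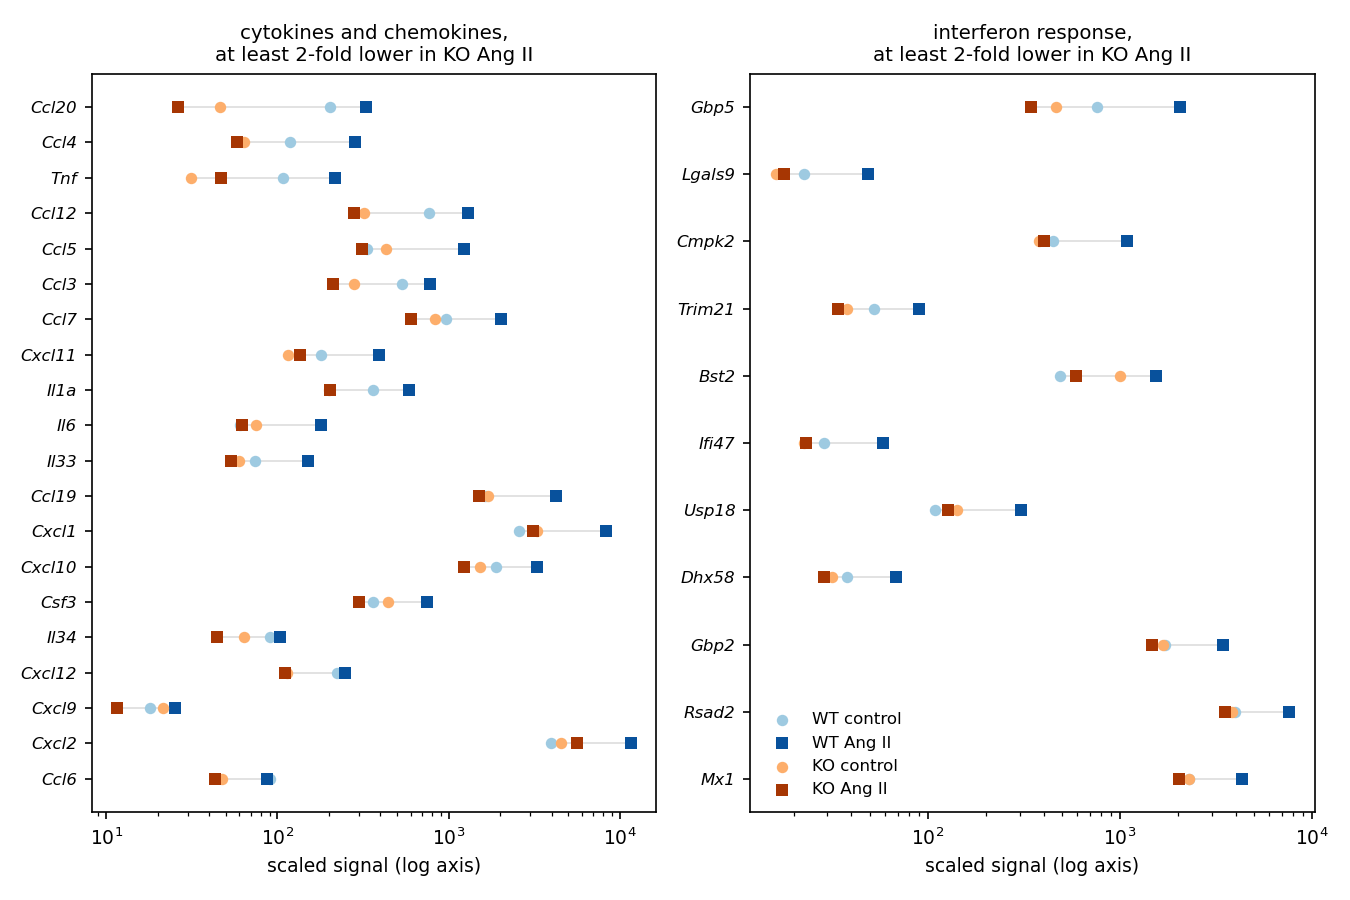
Scaled signal on all 4 arrays, on log axes in arbitrary units, for the 20 cytokine genes (left) and 11 interferon response genes (right) at least 2-fold lower in KO Ang II; each point is 1 array, circles are control and squares Ang II, blue is WT and orange KO. WT Ang II is the highest array for every gene shown except Ccl6, and for Cxcl1, Cxcl2, Il6, Mx1 and Rsad2 the other 3 arrays lie close together. The choice of genes lower in KO Ang II favours this order. Without that choice WT Ang II was highest in 67.5% of cytokine genes, 76.6% of interferon genes and 32.1% of all genes measured on 4 arrays.

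Macrophage markers were lower beside these genes. Of 15 on the array 13 were compared, with a median of -0.31, 3 at least 2-fold lower and 1 higher, and 11 below 0, while Mrc1 and Marco were dim on both arrays. Their summed scaled signal was 4281 on WT Ang II and 2625 on KO Ang II. Bright markers, Lyz2 and Cd14 among them, weigh most in that sum. The marker at least 2-fold higher was Cd74, at 1.19, and it was under 2-fold with normexp. Adgre1, a macrophage surface receptor, read 93.0 and 22.5, Cd14 read 923 and 329.5, and Lyz2 read 1261 and 568. Normexp left Adgre1 under 2-fold. C1qa, another macrophage gene, was at -0.21, and Cd68 at -0.19. In 10 of the 11 macrophage markers measured on all 4 arrays both KO arrays lay below both WT arrays, against 31.2% of all genes so measured. Without Ang II the marker median was -0.77, with 4 of 12 at least 2-fold lower, while the cytokine median there was -0.06. The part of macrophages in the lower cytokine signals was not tested.

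Interferon response genes were lower in KO with Ang II. Of 74 on the list 57 were on the array and 53 compared; 11 were at least 2-fold lower, none at least 2-fold higher, and the median was -0.56 with 44 below 0. With normexp 7 were at least 2-fold lower. Guanylate-binding proteins and related GTPases, which attack intracellular pathogens, had the lowest median of the roles, -1.08, with all 6 below 0. Gbp5 read 2049 on WT Ang II and 345 on KO Ang II, 5.94-fold lower, and Gbp2 read 3422 and 1467, 2.33-fold lower. Igtp, a further GTPase of this kind, was at -0.05.

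Among antiviral effectors 5 of 29 were at least 2-fold lower, around a median of -0.66. Cmpk2, a mitochondrial nucleotide kinase, read 1086 and 403, and its genomic neighbour Rsad2, which encodes viperin, read 7603 and 3522. Mx1, a dynamin-like GTPase against RNA viruses, read 4321 on WT Ang II and 2018 on KO Ang II, with 2283 and 2284 on the control arrays. WT Ang II was the highest array for all 3 genes, and for Mx1 and Rsad2 the other arrays lay close together. All 3 were named for being lower in KO Ang II, which favours WT Ang II as the highest array. Bst2, which encodes the membrane protein tetherin, read 1545 and 594, 2.60-fold lower, but 487 on WT control and 1006 on KO control. Trim21, an intracellular antibody receptor, was at -1.40 on its brightest probe and at 0.43 on another, so its direction depends on the probe; it was under 2-fold with normexp. Mx2 was at -0.34, Isg15, a ubiquitin-like modifier, at -0.65, and Oas1b at 0.28. Oas1 genes have near-identical copies whose probes can share signal, so their separate values are uncertain.

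Among sensors and modifiers, Usp18, which removes Isg15 from proteins and damps interferon signalling, read 304 and 127, 2.40-fold lower. Dhx58, an RNA helicase of the same circuit, read 68.3 and 28.7, a difference under 2-fold with normexp. Ifih1, the sensor Mda5, was at 0.02. The transcription factors of the response were nearer 0: Irf1 was at -0.77, Stat2 at -0.15, Irf7 at -0.05 and Irf9 at 0.27, and none of the 8 was past 2-fold. Irf3, which is present before any stimulus, was at 0.61.

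In antigen presentation the medians of the class I and class II lists had opposite signs, and class II rests on 6 genes. For class I, 20 of 23 genes lay below 0 with a median of -0.32, and the 2 past 2-fold were the subunits of the peptide transporter: Tap1 read 91.1 on WT Ang II and 41.6 on KO Ang II, and Tap2 read 516 and 244. With normexp 1 class I list gene was at least 2-fold lower. The classical chains RT1-A1, RT1-A2 and RT1-A3 lay between -0.03 and -0.02, and B2m, their light chain, was at -0.05. Class I genes are near-identical, so their probes can share signal. For class II, 4 of 6 genes lay above 0, and 6 further genes were dim on both arrays. The summed scaled signals of the 6 compared were 385 on WT Ang II and 397 on KO Ang II. Cd74, the invariant chain, read 56.6 and 129, 2.28-fold higher, and RT1-Db1 was at 0.86. Ctss, the protease that degrades the invariant chain, read 207 and 101, 2.04-fold lower. With normexp neither Cd74 nor Ctss was past 2-fold, and the class II median was 0.22 against 0.43.

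NF-kB subunits, inhibitors and adhesion molecules centred on -0.22. Of the 20 genes 2 were at least 2-fold lower, against 4.42% of all genes, and none with normexp. Cd40, a costimulatory receptor, read 85.1 and 34.1, and Tnfaip2, a target of tumour necrosis factor, read 297 and 134. The subunits Rela, Nfkb1 and Nfkb2 were at -0.67, -0.39 and -0.25. Nfkbia, the inhibitor that NF-kB itself induces, was at 0.07, Icam1 at -0.19 and Vcam1 at 0.22. The NF-kB list as a whole therefore stood much nearer to 0 than the chemokines.

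Acute phase and other secreted defence proteins were low in KO, with 5 of 12 at least 2-fold lower, a median of -0.85 and 11 below 0. Under normexp 4 were at least 2-fold lower and the median was -0.47. Orm1, the plasma protein orosomucoid, read 130.0 on WT Ang II and 17.2 on KO Ang II, 7.54-fold lower. Slpi, an inhibitor of leukocyte proteases, read 334 and 60.3, and its second probe gave -2.79. Chi3l1, a chitinase-like protein of activated macrophages and smooth muscle, read 535 and 111, and Ptx3, a long pentraxin, read 5898 and 1796. All 4 genes had both KO arrays below both WT arrays, as did 31.2% of all genes measured on 4 arrays. Complement genes had a median of -0.31, with C3, the central component, at 62.4 and 26.7, 2.34-fold lower. Of the 21 complement genes 2 were at least 2-fold lower, against 4.42% of all genes, and none with normexp. Serpina3n was at 0.06 and Lbp, which binds lipopolysaccharide, at -0.17.

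Of 29 genes of prostanoids, nitric oxide and endothelin 5 were at least 2-fold lower and 1 higher, around a median of -0.31. Under normexp the median was -0.14, and Ptges alone of the genes named here was past 2-fold. Ptges, the inducible prostaglandin E synthase, read 1007 and 306, 3.29-fold lower, and Pla2g4a, the phospholipase that releases arachidonic acid, read 91.5 and 33.4. Ptgs2, the inducible cyclooxygenase, was at 0.08, and the constitutive Ptgs1 at 0.88. Edn1, the endothelin precursor, was well above background on WT Ang II alone: it read 42.3 there and 3.91 on KO Ang II, at least 4.90-fold lower. Ednra, its receptor on smooth muscle, was at least 1.97-fold lower. Gch1, which makes the cofactor of nitric oxide synthases, read 137 and 64.3, and Nos3 was at 0.11. Pde5a, which breaks down cGMP, read 114 and 247, 2.17-fold higher, with other probes between 0.32 and 1.21.

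Among genes of the renin-angiotensin list 3 of 12 were at least 2-fold lower and none higher, with a median of -0.40. Agtr1a, the main Ang II receptor of rat vessels, read 24.1 on WT Ang II and 6.58 on KO Ang II (not well above background), at least 2.78-fold lower. It read 24.1 on WT control and 7.33 on KO control, so both KO arrays were low. Hsd11b1, a member of this list that regenerates active glucocorticoid and is not itself part of the angiotensin system, read 199 and 63.6, 3.13-fold lower. Atp6ap2, the prorenin receptor, read 169 and 76.9, and its second probe gave -1.14. Ace, the converting enzyme, was at -0.37. Agtrap, a protein that promotes internalisation of the Ang II receptor, was at 0.77, Lnpep at 0.25, and the mineralocorticoid receptor Nr3c2 at -0.16. With normexp the median was -0.25, and of the 3 genes Hsd11b1 alone was past 2-fold. Agtr1a was then at -0.29 and Atp6ap2 at -0.90. Of the remaining enzymes, Enpep and Mme, which cut angiotensin peptides, were at -0.35 and -0.43, Prcp at -0.67 and Anpep at 0.22.

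Protein kinase C genes and their partners, Prkcb included, had a median of -0.07 over 17 genes. Prkcd, an isoform that needs no calcium, was at -0.07, the atypical Prkci at -0.26, Prkch at -0.63 and Prkcq at -0.04 as a bound. Prkca had no named probe here. Marcks, a classical substrate of the kinase family, read 315 on WT Ang II and 120 on KO Ang II, 2.62-fold lower, and its second probe gave -1.38. Its relative Marcksl1 was at -0.77 and Rack1, the receptor for activated kinase C, at -0.72. The related kinase Prkd1 was at -0.93 and Prkd3 at 0.61, where another probe of Prkd3 gave -0.86. Pkn2, a related kinase, was at 0.26, Dgka, which removes diacylglycerol, at 0.17, and the phospholipases Plcb1, Plcb3 and Plcb4 at 0.41, 0.32 and 0.68.

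Nox4, the NADPH oxidase that makes hydrogen peroxide in smooth muscle and endothelium, was among the genes furthest above WT. It read 22.2 on WT Ang II and 77.8 on KO Ang II, 3.50-fold higher, with 36.7 on WT control and 63.8 on KO control. Both KO arrays lay above both WT arrays. With normexp it was under 2-fold. Of the 10 oxidase genes 8 lay below 0. Rac2, the haematopoietic small GTPase of the complex, read 63.9 and 28.1, Nox1 was at -0.71 as a bound, Cybb, the phagocyte oxidase, at -0.45, Cyba at -0.39 and Ncf4 at -0.58. Noxa1, the activator of Nox1, was at -0.60, Cybc1 at -0.23 and Rac1 at -0.17. Ncf1, the organiser subunit, was at 0.47. Of the antioxidant genes, Slc7a11, the cystine transporter, read 1477 and 394, 3.75-fold lower, Prdx4, the peroxiredoxin of the endoplasmic reticulum, was at -1.13, and Gsr, glutathione reductase, read 32.2 and 70.3, 2.18-fold higher. Hmox1 was at -0.56 and Nqo1 at -0.37. Of the 45 genes compared in this list 2 were higher and 3 lower by 2-fold, against 1.84% and 4.42% of all genes. With normexp none was higher and 1 lower, Slc7a11.

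Collagen genes were lower in KO, with 5 of 11 at least 2-fold lower, a median of -0.98 and 9 below 0. Of 41 collagens on the list 21 were on the array and 10 of those were dim on both arrays. Col3a1, a fibrillar collagen of elastic tissue, read 13830 on WT Ang II and 5003 on KO Ang II, with 13630 and 5006 on the control arrays. In this gene the difference was -1.47 with Ang II and -1.45 without. Col5a1, which starts collagen fibrils, read 2061 and 877, 2.35-fold lower, while its second probe gave -0.55. Col4a1, of the basement membrane, read 1635 and 811. Col1a1 was 3.44-fold lower on its brightest probe and at -0.63 on another, so its size depends on the probe. Col18a1 was at 0.21. With normexp 5 collagens were at least 2-fold lower.

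Enzymes that process collagen had a median of -0.48 with 18 of 21 below 0. P4hb, the beta subunit of prolyl hydroxylase and a disulfide isomerase, read 13040 and 5236, 2.49-fold lower, and Loxl2, a cross-linking oxidase, read 91.7 and 35.8. Serpinh1, the collagen chaperone, was at -0.77. Elastic fibre genes followed: Eln, which encodes tropoelastin, read 3374 and 1337, 2.52-fold lower, and Fbln5, an elastin-binding glycoprotein, read 59.0 and 21.0. Lum and Ogn, small proteoglycans, were 2.41-fold and 2.16-fold lower, the latter with -0.54 on a second probe. Ccn2, the connective tissue growth factor, read 2967 and 1473. Over elastic fibre, proteoglycan and matricellular genes 8 of 53 were at least 2-fold lower and 1 higher (Comp), with a median of -0.27, and 5 lower with normexp. Loxl2, Fbln5 and Comp were then under 2-fold. Among proteases and inhibitors 5 of 29 were at least 2-fold lower, 3 with normexp, with medians of -0.27 and -0.16. Plat, tissue plasminogen activator, read 4103 and 1618, and Adamts1 read 4640 and 1956. The metalloproteinases Mmp2, Mmp3 and Mmp14 were at 0.20, -0.25 and -0.19, and Timp1 was at 0.03.

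Fibroblast markers were lower beside the matrix genes, with 10 of 11 below 0, 2 at least 2-fold lower and 1 higher, a median of -0.55 and summed scaled signals of 31860 on WT Ang II and 23020 on KO Ang II. The sum includes Col1a1 and Lum, which are matrix genes themselves. Pdgfra was at -0.63 and Pi16 at -0.75, while Dcn, a broad fibroblast gene, was at -0.14 and Gsn at -0.15. The part of fibroblast number in the lower matrix signals was not tested.

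Smooth muscle contractile genes were higher in KO with Ang II by a small amount that most members shared. Of 43 compared 34 lay above 0, the median was 0.43, 3 were at least 2-fold higher and none lower. Ppp1r12b, a myosin phosphatase targeting subunit, read 64.8 on WT Ang II and 164 on KO Ang II, 2.52-fold higher, and its second probe gave 0.90. Actn1, an alpha-actinin of dense bodies, read 264 and 587, 2.22-fold higher. Synpo2, an actin-binding protein, read 42.7 and 90.7. All 3 were under 2-fold with normexp, where the list median was 0.24 and 31 members lay above 0. Myh11 read 3744 and 5917, 1.58-fold higher, Smtn read 1844 and 2981, Tagln 464 and 695, and Acta2 454 and 600.0. For Myh11, Smtn and Acta2 both KO arrays lay above both WT arrays, an order found in 32.7% of all genes measured on 4 arrays. The exceptions were led by Smtnl2 at -0.98, Ppp1cb, the phosphatase catalytic subunit, at -0.79 with 0.78 on another probe, and Vcl at -0.36. The 8 smooth muscle markers, which overlap this list, had a median of 0.54 and summed scaled signals of 7696 and 11710. Whether the share of smooth muscle RNA in the samples has a part in these values was not tested.

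Ion handling genes stood near the median of all genes. Calcium and potassium channel genes centred on -0.07. Of 28 the 1 past 2-fold was Cacna1h, a T-type calcium channel, at least 3.39-fold lower. Cacna1c, the L-type channel of smooth muscle, was at 0.82. Rnd1, a small GTPase of the cytoskeleton, read 37.6 on WT Ang II and 10.6 on KO Ang II, 3.55-fold lower, and was not well above background on the control arrays. Both Cacna1h and Rnd1 were under 2-fold with normexp.

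**Figure D3:**
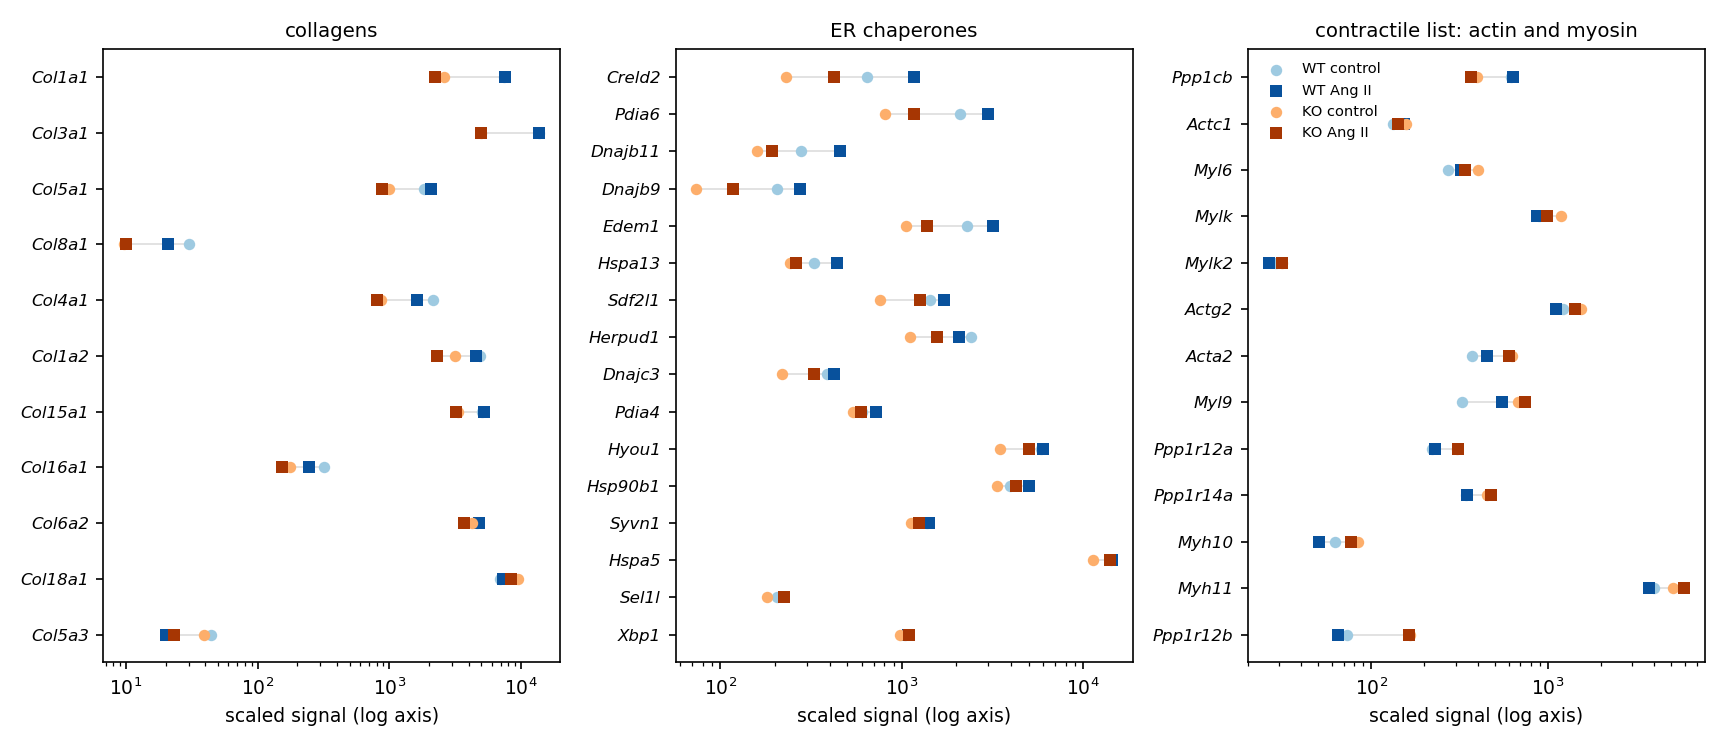
Scaled signal on all 4 arrays, on log axes in arbitrary units, for collagens (left), chaperones of the endoplasmic reticulum (ER, middle) and the actin and myosin members of the contractile list (right); each point is 1 array, circles are control, squares Ang II, blue WT and orange KO. Both orange points lie left of both blue points for 9 of 11 collagens and 13 of 16 chaperones, and right of them for 11 of 13 actin and myosin genes. Over all genes measured on 4 arrays these orders hold in 31.2% (left) and 32.7% (right).

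Growth factor genes differed in both directions, with 12 of 63 at least 2-fold lower and 3 higher, and 4 and 1 with normexp. The median was -0.36, and -0.12 with normexp, where Wnt16 and Rspo3 were under 2-fold. Bmp5, a bone morphogenetic protein, read 119 on WT Ang II and 31.9 on KO Ang II, 3.74-fold lower. Fst, an activin antagonist, read 1981 and 912, and its second probe gave -2.31. Inhba, the activin subunit, went the other way, from 2851 to 6974, 2.45-fold higher, with 2068 and 9820 on the control arrays. Activin subunit and antagonist thus stood on opposite sides of WT. Igfbp3, a carrier of insulin-like growth factors, read 2713 and 1144, and Apln, the vasodilator peptide apelin, read 439 and 197. Wnt16, a Wnt ligand, read 48.6 and 13.7, and Rspo3, a Wnt enhancer, read 14.5 and 34.5. Tgfb3 was at -0.82.

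Positional genes were centred near 0, at -0.01 over 20 genes. Meox1, a homeobox gene of mesoderm, read 45.8 and 10.9, 4.19-fold lower, Hoxc9 read 52.2 and 24.3 and Tbx3 read 53.3 and 25.8. Hoxc8 was at 0.91. All 3 lower genes had both KO arrays below both WT arrays, an order found in 31.2% of all genes measured on 4 arrays. None of the 3 was past 2-fold with normexp.

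Cell cycle genes were lower, with 28 of 34 below 0 and a median of -0.31. These counts include bounds, whose sign is set by the array that detected the gene. The 26 genes measured on both arrays had a median of -0.19, with 5 above 0, 3 at least 2-fold lower and 0 higher. Cdk1, the mitotic kinase, read 77.8 on WT Ang II and 9.02 on KO Ang II (not well above background), at least 8.63-fold lower. Rrm2, which makes deoxynucleotides for replication, read 89.3 and 21.7, 4.11-fold lower, and Mki67, the proliferation marker, read 54.6 and 20.2, 2.71-fold lower. Ccna2 was at least 2.58-fold lower and Bub1 2.41-fold lower. In each of these 5 genes both KO arrays were lower than both WT arrays, an order found in 31.2% of all genes measured on 4 arrays. Ube2c, a ubiquitin-conjugating enzyme of mitosis, read 6.13 and 14.3, at least 2.06-fold higher. Of the 34 genes 5 were at least 2-fold lower and 1 higher, and with normexp, where the median was -0.12, none was past 2-fold in either direction.

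Chaperones of the ER were lower with 14 of 16 below 0, a median of -0.38 and 5 at least 2-fold lower. With normexp 5 genes of the whole unfolded protein and stress list were at least 2-fold lower. Creld2, a secreted chaperone, read 1174 on WT Ang II and 425 on KO Ang II, and Pdia6, a disulfide isomerase, read 2967 and 1165, 2.55-fold lower. Dnajb9 and Dnajb11, cofactors of the chaperone Hspa5, were 2.34-fold and 2.36-fold lower, and Edem1 was 2.32-fold lower with other probes from -0.15 to 0.72. Hspa5 itself was at -0.03 and Xbp1, the transcription factor of this response, at 0.02. The integrated stress response stood at 0.06, with Atf4 at 0.44 and Asns at -0.79, and cytosolic heat shock genes at 0.32, led by Cryab, which read 1328 and 3035, 2.29-fold higher. Cryab was under 2-fold with normexp. ER chaperones and heat shock genes thus stood on different sides of 0, and the integrated stress response near 0, with 9 of 16 genes above it.

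Among targets of hypoxia-inducible factors (HIF) other than glycolytic enzymes 2 of 15 were at least 2-fold lower, and their median was -0.34. Car9, a carbonic anhydrase, read 370.4 on WT Ang II and 132 on KO Ang II, and Higd1a read 118 and 48.7, under 2-fold with normexp. Glycolytic enzymes had a median of 0.10 and oxidative phosphorylation genes one of -0.07, with 2 of 37 at least 2-fold lower, against 4.42% of all genes. Fatty acid oxidation and cholesterol synthesis stood at -0.10 and -0.02. Energy metabolism was thus close to the median of all genes.

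Immediate early genes were centred at 0.06, with 4 of 37 at least 2-fold higher and none lower, and 1 higher with normexp. Jun, the AP-1 subunit, read 756 on WT Ang II and 2350 on KO Ang II, 3.11-fold higher, while its second probe gave 0.18. Fosb read 74.3 and 164, Klf6 read 759 and 1566 with 0.39 on a second probe, and Dusp8, a phosphatase of stress kinases, read 209 and 450. Fos was at 0.09, Egr1 at 0.27, Klf4 at -0.70 and Dusp1 at -0.65. For Jun and Klf6 the WT Ang II array was the lowest of the 4. Among apoptosis genes Bcl2l1, an inhibitor of cell death, read 16.2 and 45.4, 2.81-fold higher, with 1.54 and 2.09 on 2 further probes. Bid, a death agonist, read 32.4 and 14.0, 2.31-fold lower. Neither was past 2-fold with normexp. Clock genes stood at 0.20.

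**Figure D4:**
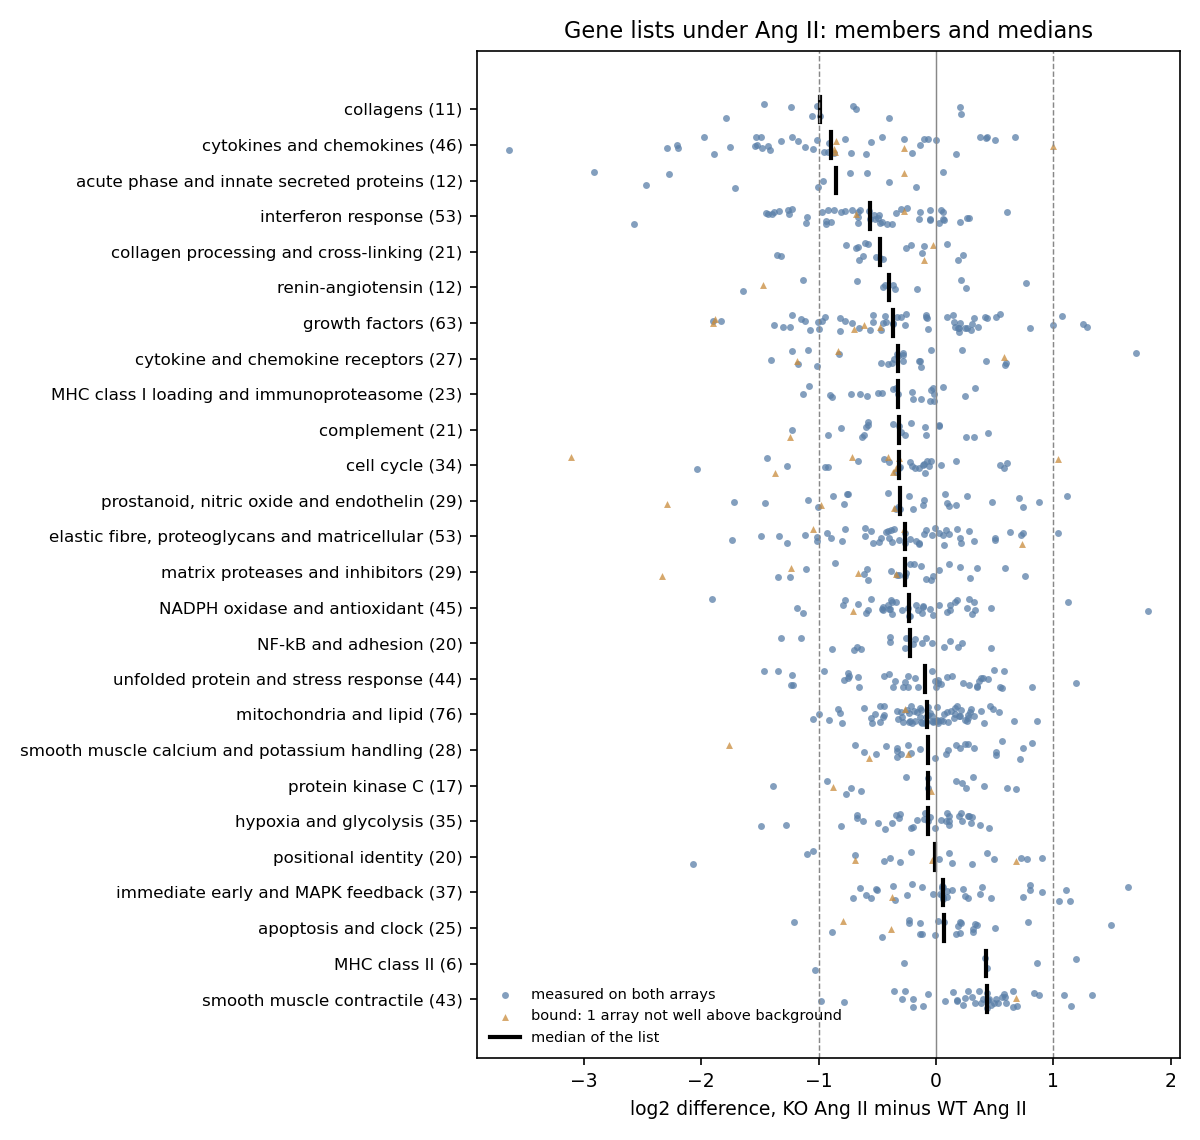
Log2 difference, KO Ang II minus WT Ang II, of the compared members of 26 gene lists, with the number compared in brackets; circles were measured on both arrays, triangles are bounds, black bars are list medians and dashed lines 2-fold. Collagens, cytokines and acute phase genes have the lowest medians (-0.98, -0.89 and -0.85) and contractile genes the highest (0.43).

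Outside these lists, the genes with the largest differences measured on both arrays were of mixed kinds. Upward they were led by Gpatch4, a nucleolar protein, which read 26.6 on WT Ang II and 120 on KO Ang II, 4.49-fold higher. Slmap, a sarcolemma-associated protein, read 10.8 and 44.4, and Rasal2, an inhibitor of Ras, read 51.1 and 191. Fmo2, a flavin monooxygenase, read 36.2 and 116, 3.21-fold higher, and Trdn, triadin of calcium release sites, read 74.1 and 200.4. As bounds, Cytl1, a small secreted protein, was at least 7.62-fold higher and Fam107a, an actin-bundling protein, at least 6.43-fold higher. Dhodh and Mark4 were 3.17-fold higher on their brightest probes and at -0.14 on another, so those values rest on 1 probe. Of these genes Gpatch4 and Rasal2 were past 2-fold with normexp, while Slmap, Fmo2, Trdn, Cytl1, Fam107a, Dhodh and Mark4 were not.

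Downward, Ubd, a ubiquitin-like modifier induced by interferon-gamma and tumour necrosis factor, read 2285 and 319, 7.16-fold lower. Olr1, the lectin-like receptor for oxidised low-density lipoprotein, read 187 and 29.8, 6.29-fold lower. Ttc21a, a ciliary protein, read 88.8 on WT Ang II and 11.7 on KO Ang II, and was not well above background on either control array. Fmo5, a flavin monooxygenase of another subtype than Fmo2, read 73.9 and 14.1, 5.25-fold lower, so the 2 monooxygenases stood on opposite sides of WT. Kcnk5, an acid-sensitive potassium channel, read 315 and 62.5, and Asah1, acid ceramidase, read 294 and 71.7. Car4, a membrane-bound carbonic anhydrase, was at least 6.68-fold lower and Rab15, a GTPase of endosomal recycling, at least 5.36-fold lower. Fmo5, Car4 and Rab15 were under 2-fold with normexp, and the others named here were not.

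Probes without a gene name made up a further part of the signal. Of 8313 such probes compared, 326 were at least 2-fold higher in KO (3.92%) and 250 at least 2-fold lower (3.01%), and they are not described here.

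The genotypes were also compared without Ang II, on the WT control and KO control arrays, which share no array with the comparison above. There 202 of 9196 genes were at least 2-fold higher in KO (2.2%) and 304 at least 2-fold lower (3.31%), on the same probes. Across the 8588 genes measured on all 4 arrays, which are not independent replicates, the log2 differences of the pairs had a Pearson r of 0.597 and a Spearman correlation of 0.587, and 72.0% of genes had the same sign. Of the genes compared in both pairs, 47 were at least 2-fold higher in both, which is 28.7% of the higher genes with Ang II and 23.3% of those without. At least 2-fold lower in both were 129, or 31.3% of the lower genes with Ang II and 42.4% of those without. Among the lower genes with Ang II, 365 had the same sign without it, but 162 were under 1.5-fold there. Genes low in KO in both pairs included Cdk1, Reln, Ccl20, Olr1, Rrm2, Meox1, Orm1 and Tnf, and genes high in both included Cytl1, Cx3cr1, Cym, Pak3, Slc24a2 and Fmo2. With Ang II, Cdk1, Reln, Rrm2, Meox1, Cytl1, Pak3 and Fmo2 were under 2-fold with normexp.

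The order of the 4 arrays was compared between the gene lists. WT Ang II was the highest array in 32.1% of the 8588 genes, both KO arrays lay below both WT arrays in 31.2% and both lay above in 32.7%. Interferon response genes had WT Ang II highest in 36 of 47 (76.6%), with both KO arrays below both WT arrays in 16 (34.0%), and their median difference between genotypes was 0.16 without Ang II against -0.56 with it. WT Ang II was highest in 13 of 23 class I genes and 12 of 20 NF-kB genes, whose medians without Ang II were 0.33 and 0.45, against -0.32 and -0.22 with it. Cytokine genes had WT Ang II highest in 27 of 40 (67.5%), both KO arrays below both WT arrays in 20 of 40, and a median of -0.06 without Ang II. For collagens both KO arrays lay below both WT arrays in 9 of 11 (81.8%), and the median was -0.85 without Ang II and -0.98 with it. ER chaperones had this order in 13 of 16 (81.2%), had WT Ang II highest in 13 of 16 as well, and had medians of -0.77 and -0.38, and HIF targets other than glycolytic enzymes had it in 12 of 15 and medians of -0.86 and -0.34. Contractile genes had both KO arrays above both WT arrays in 30 of 42 (71.4%), with medians of 0.40 and 0.43. The medians of the interferon, class I and NF-kB lists thus had opposite signs with and without Ang II. This was not particular to them. Cytokine receptors had medians of 0.01 without and -0.32 with Ang II, and matrix proteases and inhibitors 0.17 and -0.27. NADPH oxidase and antioxidant genes had 0.09 and -0.23, with WT Ang II highest in 26 of 43. Class II genes went the other way, with -0.07 and 0.43. The medians of collagens, chaperones and contractile genes had the same sign in both pairs. Differences between the pairs were not tested.

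**Figure D5:**
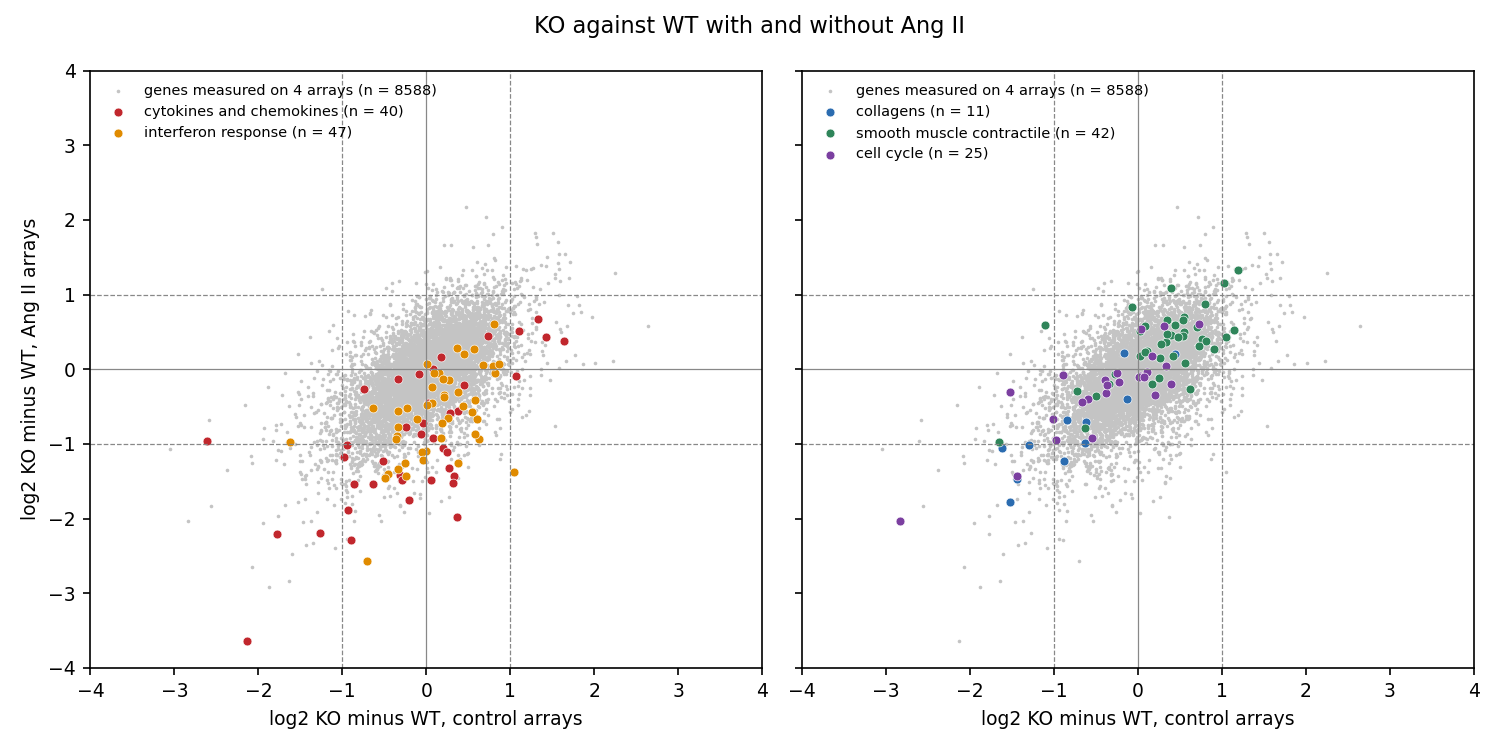
Log2 difference KO minus WT on the Ang II arrays (vertical) against the control arrays (horizontal) for the 8588 genes measured on all 4 arrays, with cytokine and interferon genes coloured on the left and collagen, contractile and cell cycle genes on the right; dashed lines are 2-fold. Interferon points lie mostly below 0 vertically while spread around 0 horizontally, and collagen points lie low on both axes.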

How the data were processed

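Total RNA of vessels of 4 groups, labelled with Cy3 per the labels, was hybridised to 1 single-colour Agilent array per group. The deposited scanner files hold intensities per spot, and the processed signal, already background-corrected per the file headers, was used. Feature Extraction is 12.1.1.1 in the submitters' processing notes but 10.7.1.1 in the file header, which leaves its version unknown. Values in the authors' deposited table, on the log2 scale, differ from the log2 processed signals by 1 constant per array, within 0.01 for 98.3% to 98.4% of probes. Its column medians were 2.30 for WT control, 2.27 for KO control, 2.22 for WT Ang II and 2.11 for KO Ang II, and no source says why the constants differ.

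Spots called outliers and control spots were left out (4 probes had no other spot), spots of a probe were averaged, and log2 signals were set against the array's 75th percentile. Accessions were matched to the RefSeq gene table (GRCr8, for names), which named 21107 of 45594 probes and 16580 genes; each gene is read from 1 probe, the brightest, and 158 provisional symbols were counted but not named. Probes were kept if well above background on at least 1 of the 2 arrays. Both groups have 1 array, so no test was made and depth cannot be given as counts: the number of arrays limits the precision.

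The genes and lists were chosen with earlier results of these data known. The text draws its named genes from Prkcb; the 20 genes with the largest difference each way that both arrays measured, and the 8 with the largest bound each way; up to 8 members per list and role with the largest difference; measured members of the protein kinase C, renin-angiotensin and NADPH oxidase roles; genes past 2-fold in both pairs or in opposite directions; and cell type markers. Some members of these lists are not reported here. Members named with values near 0 were chosen for their known role after their values were seen. Normexp (offset 50) was run on the median signals, because mean signals were not used here, although the plan named them. The steps were run on simulated arrays in which only bright genes with a single named probe were changed. The simulated noise was below the spread between spots. Changes in dim genes, bounds and disagreeing probes were therefore not covered. Python 3.11.15, numpy 2.4.6, pandas 2.3.3, scipy 1.17.1, matplotlib 3.10.9, R 4.3.3 and limma 3.58.1 were used.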

Additional observations from a re-analysis of the deposited data

Results flagged for a closer look

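Klhdc8b and Bst2 were past 2-fold in opposite directions in the pairs with and without Ang II. Klhdc8b, a kelch-domain protein, was at 1.07 on the log2 scale with Ang II and at -1.25 without, with scaled signals of 11.2 (WT) and 23.4 (KO) under Ang II and 32.0 (WT) and 13.5 (KO) in the controls. With the normexp correction Klhdc8b was under 2-fold with Ang II, at 0.31. Bst2, which encodes tetherin, was at -1.38 with Ang II and at 1.05 without, and stayed past 2-fold with Ang II under normexp. For each gene the difference between the pairs was not tested, since each group has 1 array.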

How the results depend on the processing

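With 1 array per group no result has a replicate check, and no array could be left out. No paired analysis was possible because each group has 1 array. The normexp background correction gave 18 genes at least 2-fold higher and 137 lower, of which 18 and 121 were among the 176 and 423 of the processed signal. It gave list medians of -0.45 for cytokines, -0.70 for collagens, 0.24 for contractile genes, -0.12 for cell cycle genes and -0.0095 for pericyte markers, the last with the sign turned; 106 of 187 named genes followed were then under 2-fold. Genes well above background on both arrays only gave a cell cycle median of -0.19, and Trim16 turned to -0.13, read there from another probe. Without a filter on dim probes 654 genes were higher and 1125 lower, with medians of -0.75 for cytokines and -0.46 for collagens. At 1.5-fold the counts were 867 and 1347, and at 3-fold 22 and 80. Quantile normalization gave 179 and 405, the 75th percentile of detected probes 201 and 385, their median 194 and 400, the mean of a gene's probes 167 and 420, outlier spots kept 177 and 421, and the authors' deposited log2 values gave 175 and 421. Apart from normexp, 0 to 17 of the 187 genes went under 2-fold in these settings, while 30 had no value with both arrays required. Signal over background limits the dim genes most. The normexp offset of 50 shrinks the ratios of dim genes by construction. How much of the normexp shift comes from the offset was not tested, nor was the cause of the other shifts.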
